A study of Homo sapiens with 2 samples.

Results

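Collagen genes were examined as a family in SUM-159 cells, an established human triple-negative breast cancer line. Members were the protein-coding genes whose symbol reads COL, a number, A and a number, and 44 of the 60880 rows of the deposited table met this rule. The first library came from SUM-159 cells labelled PD-L1L2-SE deficient, where SE is a super-enhancer (a dense cluster of active enhancers) whose loss the study set against expression of the immune checkpoint ligands PD-L1 and PD-L2. The other library came from SUM-159 cells given the sgVector control. Each group is 1 library, so the differences carry no replicate check and no test across genes could be made, and the intervals, which are 95% Clopper-Pearson intervals, cover counting error only. Whether the deficient cells were 1 clone or a pool is a point not given in the sources used here.

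Collagens are triple helices of chains built of repeats that begin with glycine. Fibrillar collagens form the banded fibrils of connective tissue, type IV collagens form the sheet of basement membranes, fibril-associated collagens decorate fibrils, and transmembrane collagens are single-pass surface proteins. The other classes include the beaded filaments of type VI, the anchoring fibrils of type VII and the hexagonal networks of type VIII. Carcinoma cells deposit collagens themselves, beside those made by stromal fibroblasts.

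Some type IV genes lie head to head and share a control region, which is why their start regions are shown before the values. The windows run from 250 bases before to 50 bases after a RefSeq transcription start and are taken from RefSeq on GRCh38.p14, whereas all gene coordinates from the deposited table are on hg19. Of the 44 members 32 had a window, 14 of them among the members that averaged 1 RPKM or more. The COL4A1 window is chr13:110307108-110307407 on the minus strand and the COL4A2 window chr13:110307034-110307333 on the plus strand. Their starts lie 127 bases apart and the windows share 226 bases. The COL4A5 window is chrX:108439588-108439887 on the plus strand and the COL4A6 window, the nearer of the alternative COL4A6 starts, is chrX:108439409-108439708 on the minus strand, with starts 380 bases apart and 121 shared bases. The COL6A2 window, chr21:46097862-46098161 on the plus strand, is shown as an example that holds TATAAA. It was picked with its ratio known, and a link between motifs and ratios was not tested. Capitals mark the TATAAA motif, the CCAAT motif and the GGGCGG motif, searched on both strands.
COL4A1: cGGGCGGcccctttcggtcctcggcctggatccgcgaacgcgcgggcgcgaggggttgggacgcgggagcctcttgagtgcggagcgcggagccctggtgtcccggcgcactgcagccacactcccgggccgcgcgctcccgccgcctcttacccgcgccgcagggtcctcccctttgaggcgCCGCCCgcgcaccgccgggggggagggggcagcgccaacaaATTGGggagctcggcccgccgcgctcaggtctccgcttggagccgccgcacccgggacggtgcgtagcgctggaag
COL4A2: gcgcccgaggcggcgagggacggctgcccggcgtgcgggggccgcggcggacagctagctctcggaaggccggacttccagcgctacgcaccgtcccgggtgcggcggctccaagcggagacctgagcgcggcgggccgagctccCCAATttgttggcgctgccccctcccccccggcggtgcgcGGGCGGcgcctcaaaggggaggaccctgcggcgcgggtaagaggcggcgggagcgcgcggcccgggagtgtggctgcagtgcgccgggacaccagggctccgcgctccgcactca
COL4A5: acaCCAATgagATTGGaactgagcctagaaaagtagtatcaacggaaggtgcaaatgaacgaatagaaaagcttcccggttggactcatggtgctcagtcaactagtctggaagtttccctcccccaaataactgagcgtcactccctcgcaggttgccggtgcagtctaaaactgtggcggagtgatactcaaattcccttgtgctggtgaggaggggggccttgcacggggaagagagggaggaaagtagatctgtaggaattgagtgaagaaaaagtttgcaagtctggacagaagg
COL4A6: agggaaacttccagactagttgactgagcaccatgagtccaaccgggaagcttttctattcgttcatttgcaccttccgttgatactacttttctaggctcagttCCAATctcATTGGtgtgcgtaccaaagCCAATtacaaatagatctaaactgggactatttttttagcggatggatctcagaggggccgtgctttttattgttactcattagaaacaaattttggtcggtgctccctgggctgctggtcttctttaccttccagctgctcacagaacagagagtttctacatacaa
COL6A2: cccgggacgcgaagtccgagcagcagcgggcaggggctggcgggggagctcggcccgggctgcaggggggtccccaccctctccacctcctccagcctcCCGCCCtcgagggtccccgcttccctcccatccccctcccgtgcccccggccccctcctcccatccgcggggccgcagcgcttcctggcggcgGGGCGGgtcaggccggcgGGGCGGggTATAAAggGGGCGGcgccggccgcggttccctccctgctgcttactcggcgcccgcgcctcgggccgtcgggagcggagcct

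The COL4A1 and COL4A2 windows had a GC content of 76.7% and 77.7%, held CCAAT and GGGCGG and lacked TATAAA. The COL4A5 and COL4A6 windows had a GC content of 49.3% and 43.7%, held CCAAT and lacked both other motifs. COL6A2 held TATAAA once, starting at position -32 from its start, and GGGCGG 4 times. Over all 35116 RefSeq windows of the same length, TATAAA was found in 11.5%, CCAAT in 34.6% and GGGCGG in 45%. Over the 44 windows of collagen genes (some genes have several) the shares were 18.2%, 31.8% and 54.5%. A match describes the letters of a window and is not evidence of a bound site.

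Recovered from the steps of the deposited RPKM values (reads per kilobase and per 1000000 reads on genes), depth was 16381546 reads for the deficient cells and 16206675 for the sgVector cells. The genes named for the element checked the labels: CD274, which encodes PD-L1, had 47 reads in the deficient library against 477 in the sgVector library, and PDCD1LG2, which encodes PD-L2, had 46 against 204. Epithelial markers (ESR1, PGR, CDH1 and EPCAM) summed to 7 reads in the deficient library, against 3 in the sgVector library, leukocyte markers (PTPRC, CD3E and ITGAM) to 9 and 11, and the endothelial markers VWF and CDH5 to 4 and 7. PGR and CD3E had no read in either. Mural markers (RGS5, MYH11 and ACTG2) summed to 90 reads in the deficient library, against 77 in the sgVector library. Of the markers of a mesenchymal line, vimentin (VIM) stood at 390 RPKM in the deficient library, against 746 RPKM in the sgVector library, CD44 at 68.8 and 82.8 RPKM and ZEB1 at 7.31 and 7.14 RPKM. Of the fibroblast markers PDGFRA stood at 22.1 RPKM in the deficient library, against 10.5 RPKM in the sgVector library, DCN at 2.20 and 1.85 RPKM, and LUM had 1 and 4 reads. Mitochondrial genes took 6.496% of reads in the deficient library, against 7.99% in the sgVector library. With mitochondrial genes removed the median log2 ratio of the collagen genes described below was -0.49, against -0.47 with them. This removal multiplies each library by a constant, so it cannot show whether the mitochondrial difference bears on the collagen ratios. The part of this and of the other differences in the collagen ratios was not tested. In bulk RNA fewer cells that express a gene and less RNA per cell cannot be told apart.

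Collagen mRNA as a whole was lower in the deficient library, and the classes differed in direction. The 44 genes took 48167 reads, or 0.294% of the library (0.291% to 0.297%), in the deficient cells and 57874 reads, or 0.357% (0.354% to 0.360%), in the sgVector cells. Of the members, 17 averaged 1 RPKM or more over both libraries, and the ratios below are given for them unless reads are stated. COL13A1 and COL17A1, both transmembrane, passed this floor through the sgVector library alone. Differences are log2 ratios of (RPKM + 0.1), deficient over sgVector cells, a scale that understates the change of low genes, and folds are ratios of read shares without the added 0.1. Of the 17 genes 6 were at least 2-fold lower (log2 ratio of -1 or less), against 2.07% of 10576 protein-coding genes past the same floor, and 1 was at least 2-fold higher, against 2.10%. Of the 15 genes at 1 RPKM or more in both libraries, a set chosen after the data were seen, 5 were lower and 1 higher. The median log2 ratio was -0.47 over the 17 genes and -0.34 over those 15, beside -0.03 over all protein-coding genes. Below 0 were 12 of 17, or 10 of the 15, beside 53.6%. Among protein-coding genes at least as long as the shortest of the 17, 1.36% were at least 2-fold lower. At 1.5-fold, 8 of 17 were lower, COL13A1 and COL17A1 among them, beside 8.67% of protein-coding genes, and 2 were higher, beside 6.92%. With the whole interval past 2-fold, 4 were lower, COL13A1 among them, and 1 higher, beside 1.04% and 1.31%. Over the 15 genes these interval counts were 3 lower and 1 higher. Collagen genes are long and GC-rich: the 17 had a median GC content of 60.3% (all protein-coding genes 48.0%) and 10 of them fell in the fifth of genes richest in GC, whose median log2 ratio was -0.20. After a correction for GC content and length 4 were at least 2-fold lower and 2 at least 2-fold higher. Under trimmed mean of M values (TMM) scaling 3 were lower and 2 higher. For the 15 genes, the correction and TMM the matching shares of all protein-coding genes are not given here.

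**Figure D1:**
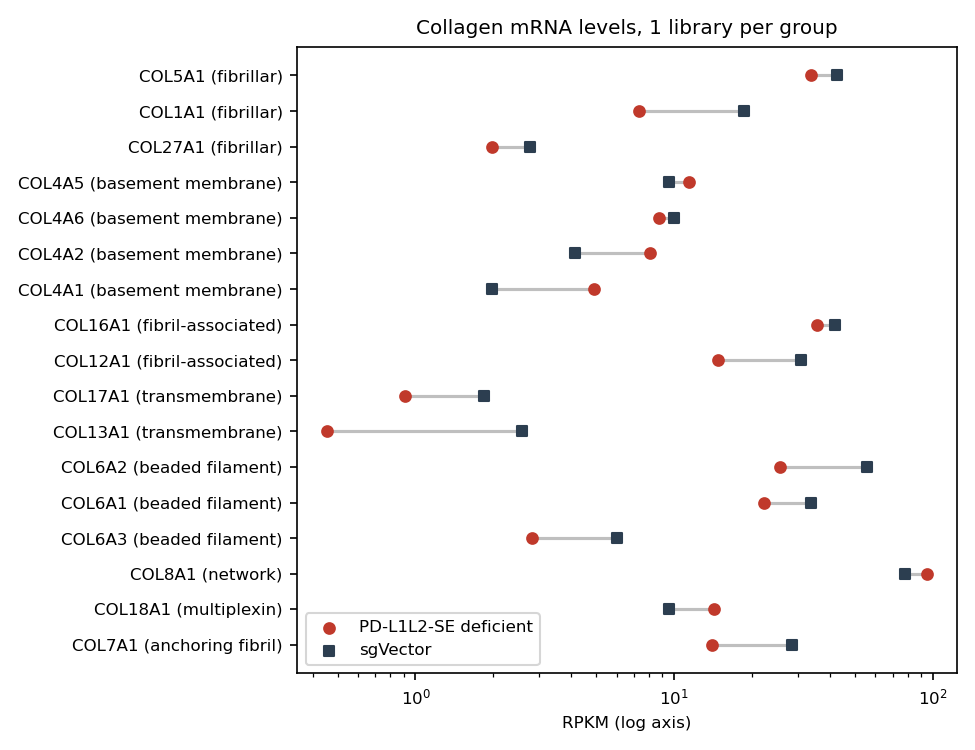
RPKM of the 17 collagen genes averaging 1 RPKM or more, on a log axis, in the PD-L1L2-SE deficient library (circles) and the sgVector library (squares), grouped by class, with 1 library per group. COL8A1 has the highest level in both libraries, and COL4A1, COL4A2, COL4A5, COL18A1 and COL8A1 are the genes whose circle lies to the right of the square.

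The order of levels per gene length placed COL8A1 first in both libraries, and the ranks behind it differed. COL8A1, a chain of the network-forming type VIII collagen, stood at 94.9 RPKM in the deficient library, against 78.2 RPKM in the sgVector library. It held 31.3% of the summed collagen RPKM in the deficient library, against 20.5% in the sgVector library. Its ratio was 1.21-fold higher (1.18 to 1.24). COL6A2 had rank 4 in the deficient library against rank 2 in the sgVector library, COL1A1 rank 12 against 8, and COL18A1 rank 7 against 11. Without COL8A1 the collagen reads were 0.205% of the deficient library and 0.284% of the sgVector library, 1.38-fold lower (1.37 to 1.40), against 1.21-fold lower (1.20 to 1.23) with it.

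Among fibrillar collagens every member past the floor was lower in the deficient library, and COL1A1 alone of these 3 by 2-fold. The class had 11 members, took 0.0480% of reads in the deficient library, against 0.0711% in the sgVector library, and was 1.48-fold lower by summed reads (1.44 to 1.53). COL1A1, the alpha 1 chain of type I collagen (hg19 chromosome 17 from 48260650 to 48278993, minus strand), had 1178 reads and 7.32 RPKM in the deficient library, against 2960 reads and 18.6 RPKM in the sgVector library. It was 2.54-fold lower (2.37 to 2.72), with a log2 ratio of -1.33. COL5A1, a chain of type V collagen that regulates fibril diameter (chromosome 9 from 137533620 to 137736689), had 6170 reads and 33.7 RPKM in the deficient library against 7727 reads and 42.6 RPKM in the sgVector library. COL5A1 was 1.27-fold lower (1.22 to 1.31). COL27A1, a minor fibrillar collagen of cartilage, had 452 reads in the deficient library against 628 in the sgVector library and was 1.40-fold lower (1.24 to 1.59). The class median was -0.47 over these 3 genes.

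The fibrillar genes under the floor included one with a large ratio. COL3A1, the chain of type III collagen, had 12 reads (0.108 RPKM) in the deficient library against 97 reads (0.879 RPKM) in the sgVector library, 8.17-fold lower (4.47 to 16.4). COL5A2, its neighbour on chromosome 2, had 10 reads in the deficient library against 33 in the sgVector library, 3.34-fold lower (1.61 to 7.59). COL11A2 had 33 reads against 67, 2.05-fold lower (1.33 to 3.21). COL1A2, which encodes the alpha 2 chain that joins COL1A1 in the usual type I heterotrimer, had 2 reads in the deficient library, against 3 in the sgVector library, so no fold is given. COL2A1 had no read in either library, COL11A1 had 0 reads against 5, COL5A3 1 against 2 and COL24A1 1 against 0.

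Chains that assemble into 1 molecule were far from equal in several types. COL1A1 stood 669 times above COL1A2 in RPKM in the deficient library (185 to 5532) and 1121 times above it in the sgVector library (383 to 5439), with intervals that overlap. COL5A1 stood 411 times above COL5A2 in the deficient library (223 to 857) and 156 times above it in the sgVector library (111 to 227). Both libraries therefore held mRNA of the first chain of types I and V with little mRNA of the second. Here and below, chain ratios rest on the deposited length of each gene. That length need not equal the length of the mRNA in these cells, and the intervals do not cover this.

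Among basement membrane collagens COL4A1 and COL4A2 were higher in the deficient library. The 6 type IV genes took 0.0448% of reads in the deficient library, against 0.0320% in the sgVector library, 1.40-fold higher by summed reads (1.35 to 1.45), and the 4 past the floor had a median log2 ratio of 0.60. COL4A1 and COL4A2 carried this: the other 4 genes summed to 3609 reads in the deficient library against 3426 in the sgVector library, 1.04-fold (0.994 to 1.09). The median was 0.26 with a floor of 5 RPKM and 0.032 with no floor. COL4A1 and COL4A2 encode the chains of the ubiquitous type IV network. COL4A1 (chromosome 13 from 110801310 to 110959580, minus strand) had 1187 reads and 4.92 RPKM in the deficient library against 470 reads and 1.97 RPKM in the sgVector library, 2.50-fold higher (2.24 to 2.79). Its log2 ratio of 1.28 was 0.995 with a pseudocount of 1 RPKM. COL4A2 (chromosome 13 from 110958159 to 111165556, plus strand) had 2543 reads and 8.05 RPKM in the deficient library against 1293 reads and 4.14 RPKM in the sgVector library. It was 1.95-fold higher (1.82 to 2.08), with a log2 ratio of 0.94, short of the 2-fold line that it passed under TMM scaling (1.02) and the GC and length correction (1.02). Both genes of this pair were thus higher, on a chromosome whose other protein-coding genes past the floor had a median log2 ratio of 0.46. A part of the shared start region in this was not tested. COL4A1 stood at 0.611 of COL4A2 in RPKM in the deficient library (0.570 to 0.655) and at 0.476 in the sgVector library (0.427 to 0.529).

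The second head-to-head type IV pair had ratios of opposite sign. COL4A5, whose mutation causes Alport syndrome, had 2222 reads and 11.4 RPKM in the deficient library against 1838 reads and 9.56 RPKM in the sgVector library, 1.20-fold higher (1.12 to 1.27). COL4A6, which shares 121 bases of start region with it, had 1323 reads and 8.70 RPKM in the deficient library against 1498 reads and 9.96 RPKM in the sgVector library, 1.14-fold lower (1.06 to 1.23). Neither ratio reached 1.5-fold. The third pair, COL4A3 and COL4A4, was under the floor, with 13 and 51 reads in the deficient library against 27 and 63 in the sgVector library. COL4A3 was 2.10-fold lower (1.05 to 4.43), and the COL4A4 interval spanned no change (0.849 to 1.84 as a fold lower).

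**Figure D2:**
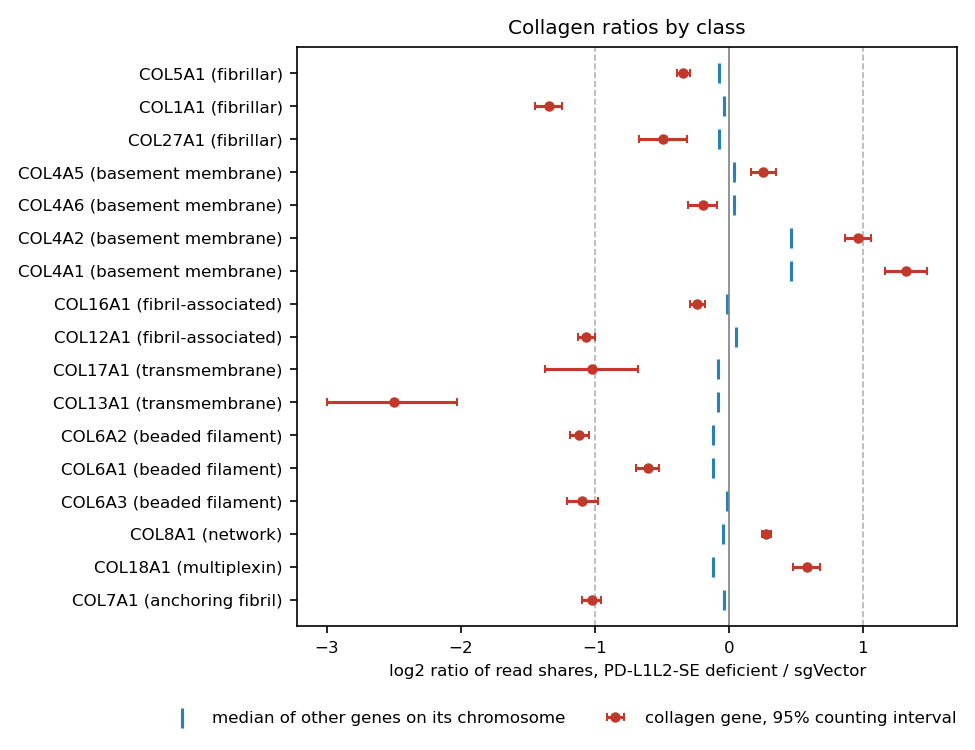
Log2 ratio of read shares, PD-L1L2-SE deficient over sgVector, for the same 17 genes with 95% counting intervals (circles with bars) and the median log2 ratio of the other protein-coding genes on each gene's chromosome (blue ticks), with dashed lines at 2-fold. COL4A1 and COL4A2 lie to the right of a chromosome 13 median of 0.46, and COL13A1 lies farthest to the left. The circles carry no added RPKM, whereas the medians are on the RPKM + 0.1 scale. COL17A1, 2.03-fold lower without the added 0.1, therefore lies past the 2-fold line here but is not counted as 2-fold lower in the text.

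Fibril-associated collagens were lower, COL12A1 much more than COL16A1. The class of 10 genes was 1.505-fold lower by summed reads (1.46 to 1.55), at 0.0516% of reads in the deficient library, against 0.0776% in the sgVector library. COL12A1, which links fibrils to the surrounding matrix (chromosome 6 from 75794042 to 75915767), had 3028 reads and 14.8 RPKM in the deficient library against 6259 reads and 30.9 RPKM in the sgVector library. COL12A1 was 2.09-fold lower (2.0003 to 2.18), with a log2 ratio of -1.06 that was -0.98 under TMM scaling. COL16A1 had 5406 reads and 35.6 RPKM in the deficient library against 6291 reads and 41.9 RPKM in the sgVector library, 1.18-fold lower (1.13 to 1.22). The antisense gene PEF1-AS1 shares 117 bases with COL16A1 exons, and with a strand setting not given in the sources used here their reads are uncertain. The other 8 genes of the class had at most 7 reads in the deficient library, against at most 12 in the sgVector library, the most in COL9A2.

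Transmembrane collagens had low levels and the largest ratio of the family past the floor. COL13A1, found at cell-matrix adhesions and at the neuromuscular junction (chromosome 10 from 71561623 to 71724031), had 44 reads and 0.456 RPKM in the deficient library against 246 reads and 2.58 RPKM in the sgVector library. It was 5.65-fold lower (4.09 to 7.98), with a log2 ratio of -2.27, which a pseudocount of 1 RPKM shrank to -1.30. COL17A1, a hemidesmosome protein also known as BP180, had 105 reads and 0.907 RPKM in the deficient library against 211 reads and 1.84 RPKM in the sgVector library. COL17A1 was 2.03-fold lower by reads (1.5998 to 2.59), with a log2 ratio of -0.95 that passed -1 only under a pseudocount of 0.01 RPKM (-1.01). COL23A1 went the other way at a few reads, with 8 in the deficient library, against none in the sgVector library, with an interval that began at 1.69-fold higher. COL25A1 had 1 read in the deficient library, against none in the sgVector library.

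The beaded filament genes of type VI were lower for all 3 chains past the floor. They took 0.0313% of reads in the deficient library, against 0.0600% in the sgVector library, 1.92-fold lower (1.85 to 1.98), counting all 5 genes of the class. COL6A2 had 2270 reads and 25.7 RPKM in the deficient library against 4863 reads and 55.7 RPKM in the sgVector library, 2.17-fold lower (2.06 to 2.28). COL6A3 had 909 reads and 2.83 RPKM in the deficient library against 1920 reads and 6.03 RPKM in the sgVector library, 2.14-fold lower (1.97 to 2.31). COL6A1 had 1942 reads and 22.2 RPKM in the deficient library against 2925 reads and 33.8 RPKM in the sgVector library, 1.52-fold lower (1.44 to 1.61). The COL6A2 log2 ratio of -1.11 became -0.91 after the GC and length correction, and the COL6A3 value of -1.07 became -0.88 with a pseudocount of 1 RPKM and -0.99 under TMM scaling. The type VI molecule takes 1 chain of each. In RPKM COL6A3 stood at 0.127 of COL6A1 in the deficient library (0.118 to 0.138). In the sgVector library it stood at 0.179 (0.169 to 0.189). The deposited lengths behind these values were 19633 bases for COL6A3 and 5343 bases for COL6A1. COL6A1 stood at 0.862 of COL6A2 in the deficient library (0.811 to 0.917) and at 0.606 in the sgVector library (0.579 to 0.635). COL6A6 had 3 reads in the deficient library against 14 in the sgVector library, and COL6A5 had none in either.

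In the remaining classes COL7A1 was lower and COL18A1 higher, and the other gene of the COL18A1 class, at few reads, was lower. COL7A1, the chain of the anchoring fibrils that fix epidermis to dermis, had 2539 reads and 13.9998 RPKM in the deficient library against 5104 reads and 28.4 RPKM in the sgVector library. It was 2.03-fold lower (1.94 to 2.13), at a log2 ratio of -1.02 that fell short of -1 under 6 of 8 alternative scalings, pseudocounts and corrections. COL18A1, a basement membrane zone collagen and the source of endostatin, had 1992 reads and 14.3 RPKM in the deficient library against 1317 reads and 9.53 RPKM in the sgVector library, 1.496-fold higher (1.40 to 1.61). SLC19A1, on the opposite strand, shares 1401 bases with COL18A1 exons, 16.4% of their length, so reads there are uncertain. SLC19A1 itself had 399 reads in the deficient library, against 535 in the sgVector library. COL15A1, the other multiplexin, had 8 reads in the deficient library against 29 in the sgVector library, 3.66-fold lower (1.63 to 9.28). COL28A1, a von Willebrand domain collagen, had 69 reads in the deficient library against 27 in the sgVector library, 2.53-fold higher (1.599 to 4.10). COL8A2 had 1 read in the deficient library, against 3 in the sgVector library, and COL10A1 and COL26A1 had none in either.

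**Figure D3:**
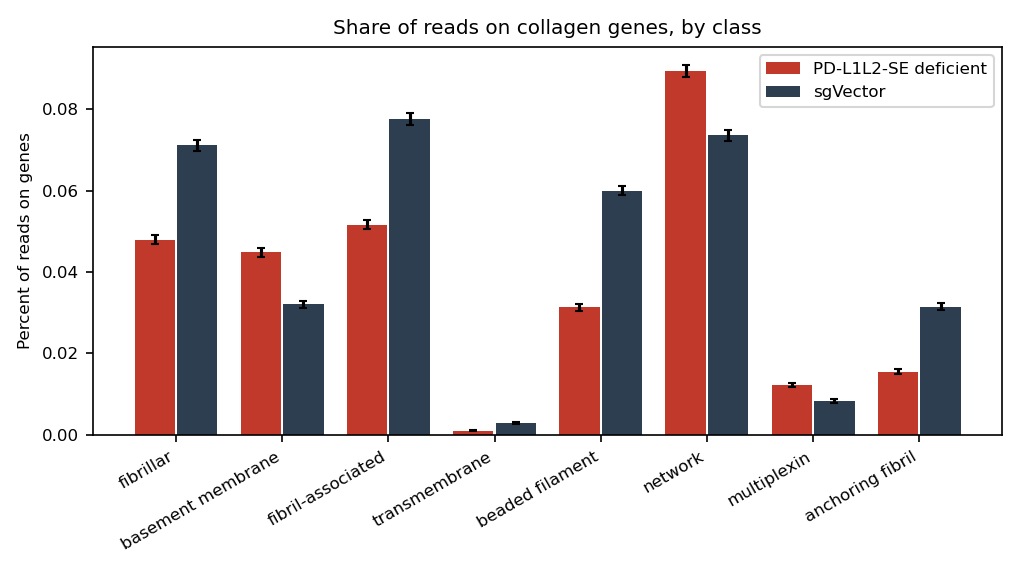
Percent of all reads on genes taken by 8 collagen classes in the PD-L1L2-SE deficient library (left bar of each pair) and the sgVector library (right bar), with 95% counting intervals. Fibrillar, fibril-associated, transmembrane, beaded filament and anchoring fibril bars are lower in the deficient library, and basement membrane, network and multiplexin bars are higher. The network bars are nearly all COL8A1 and the multiplexin bars nearly all COL18A1. COL4A1 and COL4A2 carry the basement membrane difference.

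Of the 27 members under the floor, 7 had at least 20 reads over both libraries (COL3A1, COL5A2, COL11A2, COL4A3, COL4A4, COL15A1 and COL28A1) and 5 had no read. Where no read was seen up to 3 could have been missed, which is 0.183 reads per 1000000 in the deficient library, against 0.185 in the sgVector library.

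Gene order gives a level against which each ratio can be read, since whole chromosomes differed. On chromosome 13 the 179 other protein-coding genes past the floor had a median log2 ratio of 0.46, and the 20 nearest to COL4A1 and COL4A2 were all above 0, between 0.00 and 0.96 with a median of 0.40. COL4A1, at 1.28, lay above all 20, and COL4A2, at 0.94, just below the highest of them. Less the chromosome median their log2 ratios were 0.82 and 0.48, and COL4A1 was then short of 2-fold. The part of the chromosome's shift in these ratios was not tested. On chromosome 21, where the median was -0.12, COL18A1 stood at 0.58, COL6A1 at -0.60 and COL6A2 at -1.11 along 1 run of genes, and COL6A2 lay below the 20 other genes of the run (-0.93 to 0.91). COL1A1 also lay below its 20 neighbours, whose ratios ran from -0.69 to 0.27, and so did COL12A1 (-0.24 to 0.62). COL13A1 did not (neighbours from -3.35). Nor did COL7A1, as its neighbours reached -1.32 and had a median of -0.29, nor did COL6A3 (neighbours from -1.13, median -0.27). COL27A1 and COL5A1 lie on chromosome 9, which also carries CD274, and the medians of their neighbours were 0.07 and 0.04. Less the median of their 20 neighbours (18 for COL6A2, near the chromosome end), COL1A1, COL12A1, COL13A1 and COL6A2 stood at -1.17, -1.15, -2.25 and -1.0003, while COL7A1, COL6A3 and COL4A1 were short of 2-fold at -0.73, -0.80 and 0.88. Less the chromosome median, COL6A2 and COL7A1 were also short of it, at -0.995 and -0.98.

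**Figure D4:**
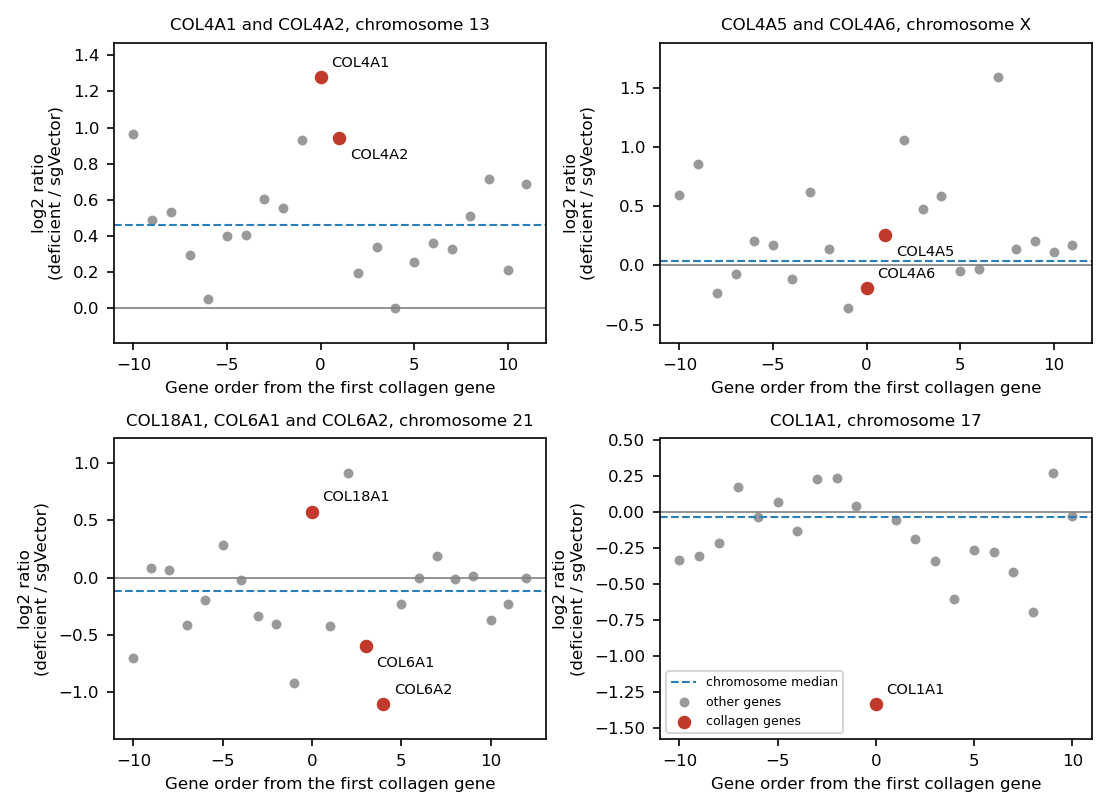
Log2 ratio, PD-L1L2-SE deficient over sgVector on the RPKM + 0.1 scale, of collagen genes (large red points) and nearby protein-coding genes past the floor (grey, 20 in each panel), by gene order, with the chromosome median as a dashed line. COL4A1 and COL4A2 sit in a run that is above 0 throughout, COL18A1 and the type VI genes lie on opposite sides of 0 in 1 run, and COL1A1 lies below its neighbours.

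Of the genes that make, bind and degrade collagen, few were past 2-fold. Over 4 lists of such genes 47 of 70 passed the floor. Of these 47, 2 were at least 2-fold lower and 1 higher, beside 2.07% lower and 2.10% higher over all protein-coding genes. The higher gene, ADAMTS2, passed the floor through the deficient library alone. In the list of modifying enzymes and chaperones, which hydroxylate, glycosylate and fold procollagen in the endoplasmic reticulum, none of 22 genes past the floor reached 2-fold, 17 were below 0, beside 53.6% of protein-coding genes, and the median was -0.23. The lowest was the prolyl 3-hydroxylase gene P3H1 at -0.72, with 14.8 RPKM in the deficient library against 24.5 RPKM in the sgVector library. The highest was PPIB, a peptidyl-prolyl isomerase of the same complex, at 0.27, with 107 RPKM in the deficient library against 88.4 RPKM in the sgVector library. The collagen-specific chaperone gene SERPINH1 stood at 0.25 and the prolyl 4-hydroxylase genes P4HA1 and P4HA2 at -0.61 and -0.56.

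Among propeptide proteases, crosslinkers and fibril regulators the 12 genes past the floor had a median of -0.26. LOXL2, which crosslinks collagen, had 4326 reads in the deficient library against 11077 in the sgVector library, 2.59-fold lower (2.50 to 2.68). ADAMTS2, the main protease that trims the amino-terminal propeptide of fibrillar procollagens, had 278 reads in the deficient library against 64 in the sgVector library. It was 4.30-fold higher (3.26 to 5.73). ADAMTS2 passed the floor through the deficient library alone, at 1.94 RPKM against 0.453 RPKM in the sgVector library. ADAMTS14, a protease of the same function named here after its values were seen, was under the floor with 12 reads in the deficient library against 93 in the sgVector library, 7.83-fold lower (4.28 to 15.7). BMP1, which trims the carboxy-terminal propeptide, stood at -0.64, and PCOLCE2, an enhancer of that step, at -0.98.

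Receptors for collagen had a median of 0.46 over 8 genes past the floor, with 3 of them below 0. ITGA10, an integrin chain of cartilage, had 127 reads and 1.23 RPKM in the deficient library against 414 reads and 4.04 RPKM in the sgVector library, 3.30-fold lower (2.69 to 4.05). The other collagen-binding integrin chains ITGA1, ITGA2 and ITGA11 stood at 0.41, 0.69 and 0.76, the kinase receptor DDR1 at 0.69 and their shared partner chain ITGB1 at -0.07. None of the 5 collagen-degrading proteases past the floor reached 2-fold. MMP2 was the highest at 0.52, with 104 RPKM in the deficient library against 72.1 RPKM in the sgVector library, and CTSK the lowest at -0.06. The collagenase genes MMP1, MMP8 and MMP13 had at most 1 read in the deficient library, against at most 4 in the sgVector library. MMP14, of the same list and also under the floor, had 23 reads in the deficient library against 49 in the sgVector library. It was 2.15-fold lower (1.29 to 3.70). In the other direction, MMP16 had 160 reads in the deficient library against 136 and FAP 9 against 3, with intervals that spanned no change.

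**Figure D5:**
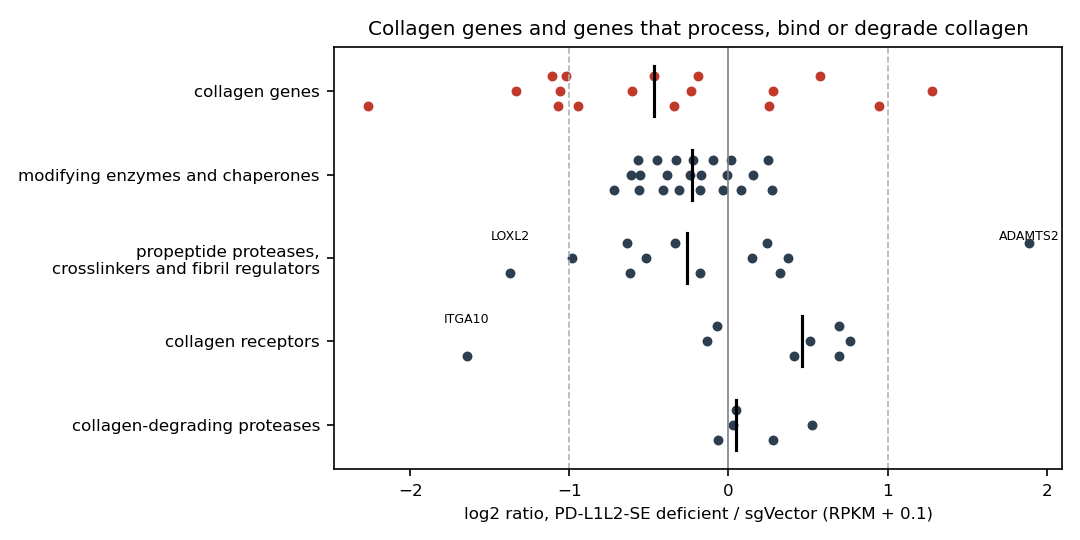
Log2 ratio, PD-L1L2-SE deficient over sgVector on the RPKM + 0.1 scale, of the 17 collagen genes (red) and of the genes past the floor in 4 lists (dark), with the median of each group as a black bar and dashed lines at 2-fold. The labelled genes LOXL2, ADAMTS2 and ITGA10 are the list members past 2-fold. ADAMTS2 passed the floor through the deficient library alone.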

How the data were processed

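RNA-seq was available as 1 library per group. Per the labels the molecule was polyA RNA, although the protocol names either polyA selection or removal of ribosomal RNA. The submitters' processing notes name hg19, GRCh37, featureCounts 1.6.4 and Subread. The authors deposited RPKM values, with exon positions and a length for each gene per the file headers. Aligner settings, annotation release and strand setting: not given in the sources used here. Multiplied by length, 100% of the RPKM values came out as whole reads (tolerance 0.001), which served for the intervals. Amplified copies of a molecule are counted again, and intervals and floors include counting error alone.

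Of 60880 rows 56858 (93.4%) matched GENCODE release 29 by identifier, used for gene type and GC content of the longest transcript, and symbols came from a gene name table. No coordinate of that release was used. The 41 pseudoautosomal copies were left out, and 1 marker gene is not reported here. Members, classes, lists and the rule for named genes were chosen with earlier results of these data known. Named were every member with a mean of at least 1 RPKM, members under it with at least 20 reads, and the members past 2-fold or else the highest and lowest of each list. Other list genes were chosen after their values were seen. For the correction, lowess (share 0.3) was fitted on GC content and then log10 length over protein-coding genes. TMM trimmed 30% of log ratios and 5% of levels at each end. Simulated data with known folds were used to test the ratios and intervals. Tools were matplotlib 3.10.9, statsmodels 0.14.6, scipy 1.17.1, pandas 2.3.3, numpy 2.4.6 and Python 3.11.15.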

Additional observations from a re-analysis of the deposited data

How the results depend on the processing

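With 1 library per group, nothing here says how far replicates would vary, and no paired analysis was possible because each group has 1 library. Alternatives were pseudocounts of 1 and 0.01 RPKM, centring on the median, TMM, upper-quartile and TPM scaling, removal of mitochondrial genes, the GC and length correction, other floors and thresholds, class medians without the farthest member, and ratios less the chromosome median. Ratios less the neighbour median, both of these subtractions for the counts, and the floor in both libraries were added after the data were seen. None of 170 values for the 17 genes changed sign. A pseudocount cannot change a sign, and the scalings move all genes by nearly the same small step, so most signs were fixed beforehand. Of the 170, 44 left the counting interval, of which 13 had the neighbour median subtracted and 9 the GC and length correction.

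Against 6 lower genes, 3 were lower under TMM. The count fell to 4 after correction for GC content and length, with the chromosome or neighbour median taken off, or with 1 RPKM added. It was also 4 with a floor of 5 RPKM and with the whole interval past 2-fold. Median centring, upper-quartile scaling and TPM each gave 5. The count rose to 7 with 0.01 RPKM added, 8 at a threshold of 1.5-fold and 9 with no floor. Against 1 higher gene, 0 were higher with a pseudocount of 1, a floor of 5 RPKM, or the chromosome or neighbour median subtracted, 2 under TMM, the GC and length correction or a threshold of 1.5-fold, and 3 with no floor. With at least 1 RPKM in both libraries 5 of 15 were lower and 1 higher. The median of all collagens was -0.29 with a floor of 5 RPKM and -0.30 with no floor, against -0.47, and the fibrillar median -0.84 with a floor of 5 RPKM, which leaves COL1A1 and COL5A1. The basement membrane median, 0.60, became 0.26 when the floor was 5 RPKM, 0.032 when there was none, and 0.94 without COL4A6. The beaded filament median, -1.07, was -0.88 with a pseudocount of 1, -0.91 with the GC and length correction, -0.86 with a floor of 5 RPKM and -0.87 with no floor. Floors and thresholds change which genes enter by their own construction, and for the other settings the cause was not tested. Without mitochondrial genes collagens took 0.314% of reads in the deficient library, against 0.388% in the sgVector library. The counts of the lists kept within 1.5 times of their main value under a pseudocount of 1, TMM and the correction. Depth limits COL1A2 and the other members under 20 reads.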

Other observations

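Collagen-like triple helices also occur outside the collagen family, in collectins, scavenger receptors, C1q-related hormones and a few other secreted proteins. Of 38 such genes, listed after the collagen values were seen, 11 had a mean of at least 1 RPKM, and past 2-fold there was 1 higher gene and 1 lower gene, beside 2.10% higher and 2.07% lower over all protein-coding genes. MARCO, a scavenger receptor best known in macrophages, had 730 reads and 21.4 RPKM in the deficient library against 293 reads and 8.70 RPKM in the sgVector library, 2.46-fold higher (2.15 to 2.83). C1QTNF4, which passed the floor through the sgVector library alone (0.770 RPKM in the deficient library against 1.89 RPKM in the sgVector library), had 21 reads in the deficient library against 51 in the sgVector library, and its log2 ratio of -1.19 became -0.85 after the GC and length correction. EDA and GLDN, which encode transmembrane proteins with a collagen-like stretch, stood at 0.63 and 0.61, and the scavenger receptor gene SCARA3 at -0.29.

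COL5A1-AS1, an antisense RNA gene inside COL5A1, had 6 reads in the deficient library against 28 in the sgVector library, 4.72-fold lower (1.92 to 13.9), while COL5A1 itself was 1.27-fold lower. The type VI pseudogene COL6A4P1 had 10 reads in the deficient library, against 5 in the sgVector library, with an interval that spanned no change.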
